A study of Mus musculus with 6 samples.

Results

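The genes described here are Bnip3 and 8 other receptors and adaptors of mitophagy, 9 of the 24421 genes in the count table. They were matched by gene symbol and then set in 3 groups by what is known of them: Bnip3, Bnip3l and Fundc1, receptors linked to hypoxia; Bcl2l13, Fkbp8 and Phb2, other receptors of the mitochondrial membranes; and Pink1, Optn and Sqstm1, genes of the PINK1 route. The set was chosen by a value measured in these same libraries, the log2 fold change of Bnip3 between doxycycline and untreated cells. Fold changes of the 9 genes, and whether each passed the threshold of the fit over all genes, are therefore given as a description. No p-value is given for them and nothing is supported with them.

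Mitophagy is the removal of mitochondria by autophagy, in which a double membrane closes around an organelle and delivers it to the lysosome. It can be started by receptors that sit in the mitochondrial membranes and bind LC3 and GABARAP proteins on the growing autophagic membrane, as BNIP3, its relative BNIP3L (also called NIX) and FUNDC1 do. Bnip3 and Bnip3l are classic targets of the hypoxia-inducible factors (HIF), whereas FUNDC1 is switched mainly by phosphorylation of its protein. In the PINK1 route the kinase PINK1 collects on damaged mitochondria and starts their tagging with ubiquitin, and adaptors such as optineurin (Optn) and p62 (Sqstm1) link the ubiquitin chains to LC3.

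The cells were 4T1-tetL1(GLucAI), a stable blasticidin-selected population made from 4T1, a breast carcinoma line labelled with the strain BALB/cfC3H. They carry a piggyBac-integrated cassette in which a bidirectional doxycycline-responsive promoter of the TRE3G type drives a recoded mouse LINE-1 (L1) retrotransposon on one side and firefly luciferase on the other. A Gaussia luciferase reporter of retrotransposition sits within the L1 unit, and an EF1α promoter drives the Tet-On 3G activator and blasticidin resistance. All 6 libraries carry this cassette. The 3 untreated libraries (tagged as vehicle) were compared with 3 libraries from cells given 400 ng/mL doxycycline for 48 h. No doxycycline-treated cells without the cassette were analysed here, so effects of the drug, of L1 and of the co-induced luciferase cannot be told apart. The cassette transcript was not analysed here either, so each direction rests on the sample labels.

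Totals ran from 33537520 to 43631312 counts in untreated and from 31653464 to 41264244 counts in doxycycline libraries, so that 3 counts in a library stood for 0.0688 to 0.0948 CPM (counts scaled to a common library total), a floor for counting error only. Epithelial markers were present, with Krt18 at 637.2, Krt8 at 412.1 and Cdh1 at 313.2 CPM on average. Of 16 markers of other cell types, 14 had a mean under 1 CPM and Adgre1 had no count. Pdgfra, a growth factor receptor of fibroblasts, ran from 35.2 to 37.6 CPM in untreated and from 27.3 to 28.6 CPM in doxycycline libraries. The other 15 markers together ran from 2.19 to 3.63 and from 2.48 to 3.27 CPM. Whether the Pdgfra difference has a part in the values below was not tested.

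The promoters are shown because hypoxia-inducible factors bind a short core, ACGTG or GCGTG. Both cores were searched on both strands from 250 bases before to 50 bases after the start in the RefSeq promoters of GRCm38.p6, which held 8 of the 9 genes (Bnip3l had no entry). Bnip3 had 5 matches, 2 of ACGTG and 3 of GCGTG, and both ACGTG matches lie on opposite strands of one palindrome and overlap. They begin 117, 108, 107, 99 and 35 bases before the start. Optn had 3 matches, Fkbp8 2, Bcl2l13, Phb2 and Pink1 1 each, and Fundc1 and Sqstm1 0. The windows of Fundc1 (chrX:17571958-17572257) and Optn (chr2:5064068-5064367) lie wholly within the gene spans given below. For these genes no base before the span was searched. Of all 32851 promoters, 19.6% held ACGTG, 32.4% held GCGTG, 43.8% held at least 1 match and 1.66% at least 5. Over the 20788 promoters of genes in the count table the last share was 2.21%. A match is a string of letters and not a measured binding site. The stretches below are read 5′ to 3′ along the gene, end before the start, and carry the matches in capitals. They are shown to set the cluster of Bnip3 beside shorter stretches of Fkbp8 and Pink1 that hold a single match each. The other match of Fkbp8, 210 bases before the start, lies outside its stretch, and the 3 matches of Optn are not shown.
Bnip3, chr7:138909507-138909656, minus strand: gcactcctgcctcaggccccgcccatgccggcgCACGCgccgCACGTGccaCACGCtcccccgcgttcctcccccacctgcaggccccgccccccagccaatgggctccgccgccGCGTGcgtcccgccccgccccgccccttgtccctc
Fkbp8, chr8:70527643-70527702, plus strand: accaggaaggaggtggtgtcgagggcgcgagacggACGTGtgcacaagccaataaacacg
Pink1, chr4:138326312-138326371, minus strand: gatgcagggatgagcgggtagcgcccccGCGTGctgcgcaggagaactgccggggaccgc

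In untreated cells the members differed widely in level. Levels between genes are given as CPM per kilobase of the gene's exons (the union over all its transcripts in GENCODE M21), the mean ± SD of 3 libraries. Sqstm1 stood highest at 83.6 ± 2.94, above Bnip3l at 44.4 ± 2.56, Phb2 at 39.3 ± 1.61 and Bnip3 at 28.2 ± 5.46. Fkbp8 followed at 23.4 ± 1.04 and Fundc1 at 12.6 ± 0.499. Lowest were Optn at 5.89 ± 0.192, Bcl2l13 at 5.72 ± 0.206 and Pink1 at 2.62 ± 0.286. The ranges of neighbours in this order overlapped for Bnip3 and Fkbp8 and for Optn and Bcl2l13, and for no other neighbours. Among the 12605 tested genes with a length, Sqstm1 lay at percentile 96.7, Bnip3 at 87.3 and Pink1 at 32.2.

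The order depends on the length used, as the plot of levels per kilobase shows. With the longest RefSeq-matched transcript, Phb2 (111.0) and Fkbp8 (58.9), whose exon unions of 3718 and 4529 bases compare with transcripts of 1318 and 1799 bases, moved to ranks 1 and 3, and Bnip3 (36.4) moved from rank 4 to 5. Pink1 stayed last at 2.95 and Optn and Bcl2l13 kept ranks 7 and 8. In this order the ranges of Phb2 (106.4 to 115.5) and Sqstm1 (102.0 to 109.1) overlapped, and those of no other neighbours.

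**Figure D1:**
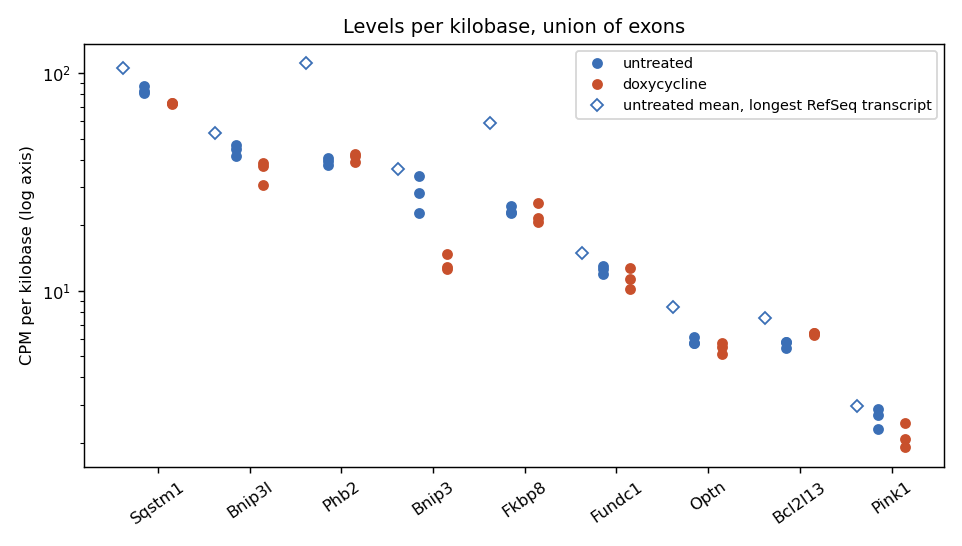
Levels of the 9 genes in CPM per kilobase on a log axis, 1 filled point per library (blue untreated, red doxycycline). Open diamonds are the untreated mean with the longest RefSeq-matched transcript as length. Sqstm1 is highest and Pink1 lowest on the exon-union scale, and the doxycycline points of Bnip3 lie below all its untreated points.

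Bnip3, picked for its fold change, had the largest fold change of the 9 genes. It encodes an outer membrane receptor of the BCL2 family and lies on chromosome 7 from 138890836 to 138909506 (GRCm38, as all positions here, from RefSeq). Its level was 51.7, 63.7 and 76.4 CPM in untreated replicates 1 to 3 and 33.5, 29.2 and 28.5 CPM in doxycycline replicates 1 to 3. Every doxycycline library lay below every untreated one, and the untreated libraries were themselves spread, with replicate 3 highest. The means were 63.9 ± 12.4 and 30.4 ± 2.68 CPM (SD, n = 3 each), 52.4% lower with doxycycline. In bulk RNA, fewer cells that express a gene and less of its RNA per cell cannot be told apart. The fitted log2 fold change was -1.07 (SE 0.13), the 50th lowest of 13084 tested genes. Stretches of 544 to 567 bases of Bnip3 transcripts match 4 annotated pseudogenes at 93.4 to 98.9% identity. A lincRNA, AC160336.1, matches over 858 bases at 98.3%, and an antisense transcript, Gm45507, over 347 bases at 99.7%. None of these is in the count table under its symbol. Shared reads can be lost or counted to Bnip3 in a way the sources used here do not describe.

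Bnip3l, the closest relative of Bnip3, is known for clearing mitochondria from maturing red blood cells (chromosome 14, 66985238 to 67008877). It stood at 160.4, 173.6 and 179.7 CPM in untreated replicates 1 to 3 and at 149.5, 118.2 and 145.0 CPM in doxycycline replicates 1 to 3. The groups did not overlap, and doxycycline replicate 2 was the lowest library. The means were 171.2 ± 9.87 and 137.6 ± 16.9 CPM, 19.7% lower, with a log2 fold change of -0.32 (SE 0.07). A transcribed pseudogene, Bnip3l-ps, shares 99.4% identity with it over 1131 bases.

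Fundc1, on chromosome X from 17519967 to 17572329, had 28.3, 30.6 and 29.7 CPM in untreated and 26.7, 24.0 and 30.0 CPM in doxycycline replicates 1 to 3. Here the groups overlapped, since doxycycline replicate 3 lay among the untreated libraries (log2 fold change -0.14, SE 0.08).

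Within a library, Bnip3 also stood lower against its relative. The ratio of Bnip3 to Bnip3l per kilobase was 0.549, 0.625 and 0.724 in untreated replicates 1 to 3 and 0.381, 0.421 and 0.335 in doxycycline replicates 1 to 3. This ratio does not depend on library scaling, and its groups did not overlap. Bnip3 made up 9.56 to 13.2% of the summed level of the 9 genes without doxycycline and 5.94 to 7.0% with it. The ratio and the share both hold the Bnip3 values that chose the set, so they are a description and support nothing.

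**Figure D2:**
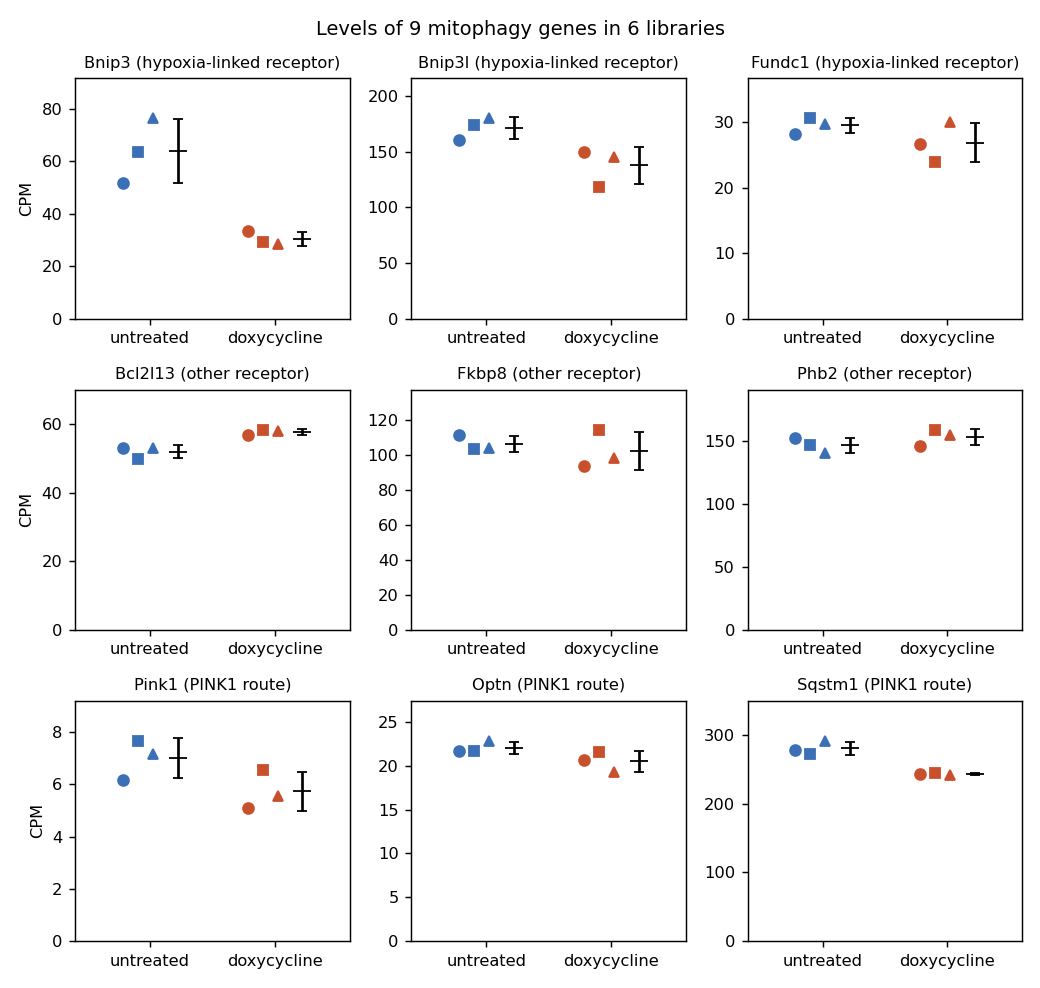
CPM of each gene (vertical axes, starting at 0) in untreated (blue) and doxycycline (red) libraries. Circles, squares and triangles are replicates 1, 2 and 3, and black bars are mean and SD. Bnip3 runs from 51.7 to 76.4 CPM in untreated and from 28.5 to 33.5 CPM in doxycycline libraries, while Fundc1, Fkbp8, Phb2 and Pink1 overlap between groups.

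The other membrane receptors differed little. Bcl2l13, an outer membrane protein of the BCL2 family (chromosome 6, 120836206 to 120892842), had 53.1, 49.8 and 53.1 CPM in untreated and 56.9, 58.4 and 57.9 CPM in doxycycline replicates 1 to 3. It was the only one of the 9 genes with every doxycycline library above every untreated one, by a log2 fold change of 0.15 (SE 0.06). Part of its exons overlaps Bid on the other strand, and reads there can belong to either gene.

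Fkbp8, an outer membrane prolyl isomerase relative that binds BCL2 (chromosome 8, 70527721 to 70535328), had 111.4, 103.0 and 103.6 CPM in untreated libraries. It had 93.7, 114.3 and 98.1 CPM in doxycycline libraries, which held both its lowest and its highest value (log2 fold change -0.05, SE 0.06). Its exons overlap Kxd1 on the other strand. Phb2 encodes prohibitin 2, an inner membrane scaffold that can bind LC3 once the outer membrane is broken (chromosome 6, 124712289 to 124716945). It ran from 140.3 to 152.2 CPM in untreated and from 145.7 to 158.7 CPM in doxycycline libraries, which overlapped (log2 fold change 0.06, SE 0.05).

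In the PINK1 route, the log2 fold changes of Sqstm1, Pink1 and Optn were all below 0. Sqstm1 encodes p62, a cargo adaptor that autophagy itself degrades (chromosome 11, 50200152 to 50210820). It had 277.7, 272.6 and 291.7 CPM in untreated and 243.7, 245.1 and 242.3 CPM in doxycycline replicates 1 to 3. The groups did not overlap, and the doxycycline libraries lay within 3 CPM of each other. The means were 280.6 ± 9.88 and 243.7 ± 1.38 CPM, 13.2% lower, with a log2 fold change of -0.20 (SE 0.04). A stretch of 583 bases is shared with transcripts of Mrnip.

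Pink1, the kinase that starts the route (chromosome 4, 138313409 to 138326296), was the least abundant member, with 162 to 271 counts per library. It had 6.17, 7.67 and 7.16 CPM in untreated and 5.1, 6.56 and 5.56 CPM in doxycycline replicates 1 to 3. Doxycycline replicate 2 lay above untreated replicate 1, so the groups overlapped. Its log2 fold change of -0.28 was close to that of Bnip3l but came with an SE of 0.14, the widest of the 9 genes.

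Optn, the optineurin adaptor (chromosome 2, 5020521 to 5064399), had 21.7, 21.7 and 22.9 CPM in untreated and 20.7, 21.6 and 19.3 CPM in doxycycline libraries. The highest doxycycline library lay just under the lowest untreated one, so the groups met without overlapping (log2 fold change -0.11, SE 0.08).

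All 9 genes passed the filter on low counts. In the edgeR quasi-likelihood fit over 13084 genes, 3 of the 9 (Bnip3, Bnip3l and Sqstm1) were among the genes called lower at an adjusted p under 0.05 and 0 were called higher. Over all tested genes 2.16% were called lower, 0.925% higher and 3.09% in either direction. Since Bnip3 was picked from this contrast, nothing is read from that count or from the calls that make it up. Libraries of the groups were fully separate for 5 of the 9 genes and for 21.3% of all tested genes. The median log2 fold change was -0.14 over the 9 genes and 0.002 over all tested genes, and 7 of the 9 values were below 0.

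The values moved with the libraries used, as the plot of fold changes shows. The log2 fold change of Bnip3 was -0.92 (SE 0.09) without untreated replicate 3, its highest library, and -1.21 (SE 0.09) without untreated replicate 1. Without doxycycline replicate 2 it was -1.05 with an SE of 0.23, and Bnip3 no longer passed the threshold. Bnip3l ran from -0.38 to -0.22 and did not pass without untreated replicate 2 or 3. Sqstm1 ran from -0.22 to -0.18 and did not pass without untreated replicate 1, untreated replicate 3 or doxycycline replicate 3. How often a gene passed is no support for it, since the same libraries chose the set.

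**Figure D3:**
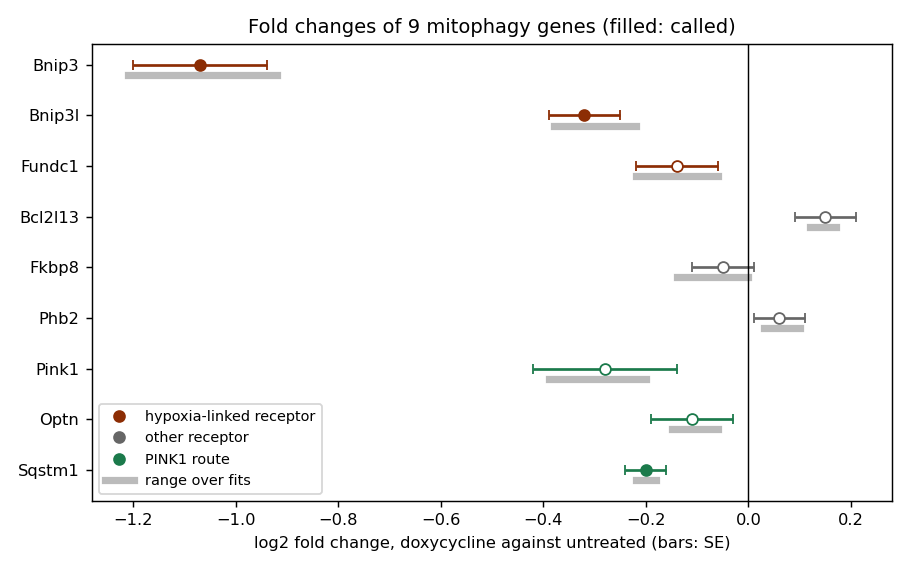
Log2 fold change of each gene, doxycycline against untreated (horizontal axis), with SE as bars and the range over 14 alternative fits as grey bars. Filled points are genes called at an adjusted p under 0.05. Bnip3 lies near -1.07, and the 2 genes above 0 are Bcl2l13 and Phb2.

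Summed per group of members, the hypoxia-linked receptors ran from 76.4 to 92.9 CPM per kilobase without doxycycline and from 53.7 to 64.9 with it. The PINK1 route, mostly Sqstm1, ran from 89.9 to 95.7 and from 79.4 to 81.2. The other receptors overlapped, from 66.4 to 71.4 and from 66.1 to 74.3. These sums weigh each gene by its exon union. In the hypoxia-linked sum, mean Bnip3 went from 28.2 to 13.4 CPM per kilobase with doxycycline. Bnip3l went from 44.4 to 35.7 and Fundc1 from 12.6 to 11.4. Bnip3 was picked for its fold change, so nothing is read from that sum.

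Most of the tested HIF target genes were lower with doxycycline. Of 34 tested HIF targets outside the 9 members, 0 were called higher and 20 lower (58.8%, beside 2.16% of all tested genes). An unadjusted p under 0.05 was found for 28 (82.4%, beside 16.2% of all tested genes). DESeq2 called 19 lower and limma voom 20, and neither called any higher. The log2 fold changes ran from -1.91 to 0.60 with a median of -0.26, and 2 of the 34 were above 0. Without untreated replicate 3 there were 11 called lower, and without doxycycline replicate 3 there were 12. Many of these genes were already known to be lower in these libraries, so the list is context for Bnip3 and not independent evidence.

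Car9, a carbonic anhydrase at the cell surface and a standard hypoxia marker, had 6.81, 5.25 and 7.56 CPM in untreated and 3.81, 3.72 and 3.21 CPM in doxycycline libraries. Its edgeR adjusted p was 0.00212 for a log2 fold change of -0.87 (SE 0.16). Egln3, an oxygen-sensing hydroxylase that marks HIF-α for degradation, fell from 116.5 ± 6.48 to 79.8 ± 5.6 CPM (edgeR adjusted p 4.08e-06 for a log2 fold change of -0.55, SE 0.06). Ddit4, an inhibitor of mTORC1, fell from 25.7 ± 2.11 to 16.6 ± 2.63 CPM (edgeR adjusted p 0.000636 for a log2 fold change of -0.63, SE 0.10). Ndrg1, a hypoxia-induced gene, had an edgeR adjusted p of 0.0115 for a log2 fold change of -0.58 (SE 0.10), a call lost without doxycycline replicate 1 and without doxycycline replicate 2. Vegfa, the angiogenic growth factor, did not pass (edgeR adjusted p 0.151 for a log2 fold change of -0.25, SE 0.09).

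The library with the most Bnip3 was also the one with the most of many HIF targets. Untreated replicate 3 held the highest value for 22 of the 32 HIF targets with a log2 fold change below 0 (68.8%), beside 28.6% of all tested genes below 0. The plot of single libraries shows this for Car9, Egln3 and Ndrg1. Untreated replicate 1, lowest of its group for Bnip3, was also the lowest for Ndrg1, whereas Car9 and Egln3 were lowest in untreated replicate 2. The part of that library in the Bnip3 value is given above by the fit without it.

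**Figure D4:**
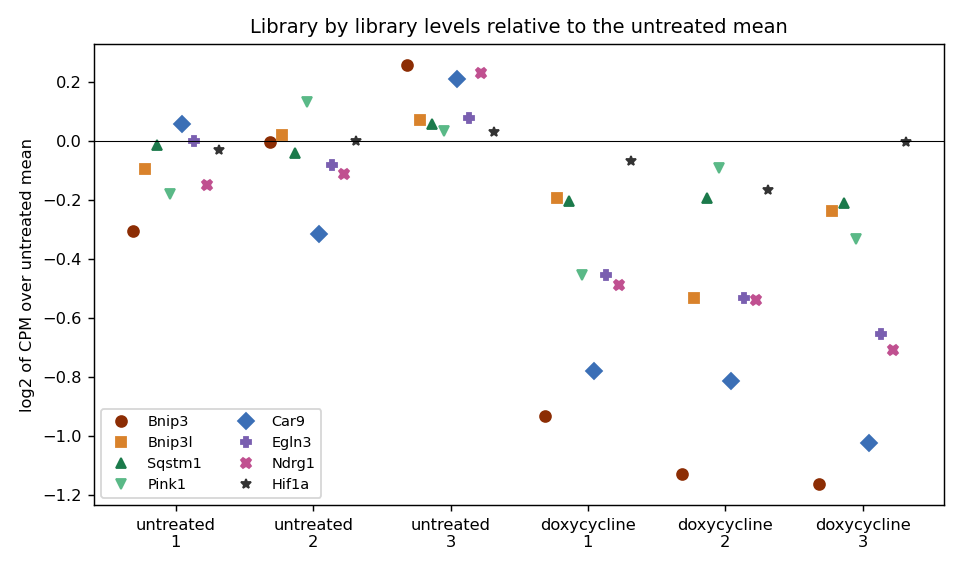
Log2 of CPM over the untreated mean (vertical axis) in each of the 6 libraries for 4 members, 3 HIF targets and Hif1a, 1 marker shape per gene. Bnip3, Car9 and Ndrg1 are highest in untreated replicate 3, and Hif1a stays near 0 in both groups.

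Of 7 tested genes of HIF subunits and oxygen sensing, 0 were called in the edgeR fit, in DESeq2 or in limma voom. Over all tested genes 3.09% were called by edgeR, so few calls or none would be found among 7. An unadjusted p under 0.05 was found for 1 (14.3%, beside 16.2% of all tested genes). The hydroxylases Egln1 and Egln3, which also sense oxygen, were counted among the HIF targets and were both called lower, so the 0 does not cover them. Egln1, at a log2 fold change of -0.255, is named here after its value was seen. Hif1a, the HIF-1 oxygen-regulated subunit, had 366.4 ± 7.78 and 347.1 ± 19.6 CPM (edgeR adjusted p 0.437 for a log2 fold change of -0.08, SE 0.05). HIF-1α is controlled mainly as a protein, which was not measured. Vhl, the ligase subunit that degrades it, had an edgeR adjusted p of 0.291 for a log2 fold change of -0.22 (SE 0.10). Epas1, which encodes HIF-2α, had 2 counts in untreated replicate 2 and 0 in the 5 other libraries.

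No tested gene of the wider PINK1 route was called. Of 30 tested genes outside the 9 members, 0 were called by edgeR, DESeq2 or limma voom. The edgeR fit called 3.09% of all tested genes, so few calls or none would be found among 30. An unadjusted p under 0.05 was found for 5 (16.7%), close to the 16.2% of all tested genes. The median log2 fold change was 0.03. Tbk1, the kinase that phosphorylates optineurin and p62, had 50.5 ± 3.01 and 50.2 ± 4.26 CPM (edgeR adjusted p 0.976 for a log2 fold change of -0.01, SE 0.07). Tomm7, an import subunit that holds PINK1 at the outer membrane, had an edgeR adjusted p of 0.651 for a log2 fold change of -0.11 (SE 0.10), and was called without doxycycline replicate 1 at -0.26. Usp30, which removes ubiquitin from mitochondria, stood at 0.06 (SE 0.08, edgeR adjusted p 0.798), and Mfn2, a fusion GTPase of the outer membrane, at 0.04 (SE 0.05, edgeR adjusted p 0.788).

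The partners and regulators of the receptors gave 0 calls among 16 tested genes by all 3 tools. At the 3.09% of all tested genes that edgeR called, few or none would be found among 16. An unadjusted p under 0.05 was found for 4 (25.0%, beside 16.2% of all tested genes). Fbxl4, part of a ubiquitin ligase that limits BNIP3 and NIX, had an edgeR adjusted p of 0.427 for a log2 fold change of 0.17 (SE 0.10). Phb, the prohibitin that forms rings with PHB2, had 104.1 ± 4.37 and 112.5 ± 1.73 CPM, groups that did not overlap (edgeR adjusted p 0.249 for a log2 fold change of 0.11, SE 0.05).

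The machinery downstream of the receptors gave no calls. Of 32 core autophagy genes 0 were called by the 3 tools, in a contrast where 3.09% of all genes were called, and 5 (15.6%) had an unadjusted p under 0.05, near the 16.2% of all genes. At that share few calls or none would be found in a list of this size. The log2 fold changes ran from -0.74 to 0.61 with a median of -0.04. Groups did not overlap for 11 of the 32 genes, beside 21.3% of all tested genes. Map1lc3b, which encodes the LC3B that the receptors bind, had 72.7 ± 0.426 and 68.2 ± 1.96 CPM (edgeR adjusted p 0.398 for a log2 fold change of -0.09, SE 0.05). Its relative Gabarapl1 stood at 0.12 (SE 0.08, edgeR adjusted p 0.526) and the initiating kinase Ulk1 at -0.11 (SE 0.08, edgeR adjusted p 0.519).

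Sqstm1 is a known target of the transcription factors TFEB and NRF2. Among 19 tested genes of those axes 0 were called by edgeR or limma voom and 1 lower by DESeq2. With 3.09% of all tested genes called by edgeR, few or none would be found among 19. An unadjusted p under 0.05 was found for 4 (21.1%, beside 16.2% of all tested genes). The log2 fold change was below 0 for 15 and above 0 for 4, with a median of -0.03. Over all tested genes 49.2% were below 0. Nfe2l2, which encodes NRF2, had an edgeR adjusted p of 0.823 for a log2 fold change of -0.03 (SE 0.05), and Tfeb -0.14 (SE 0.14, edgeR adjusted p 0.671).

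Genes of mitochondrial fission and fusion (9 tested, median 0.01) and of mitochondrial content (12 tested, median 0.03) had 0 calls by all 3 tools. Lists of this size would hold few calls or none at the 3.09% of all tested genes that edgeR called. An unadjusted p under 0.05 was found for 1 (11.1%) and 3 (25.0%), beside 16.2% of all tested genes. Dnm1l, the fission GTPase, had 194.6 ± 8.49 and 196.1 ± 9.55 CPM (edgeR adjusted p 0.945 for a log2 fold change of 0.01, SE 0.05). No mitophagy flux was measured.

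**Figure D5:**
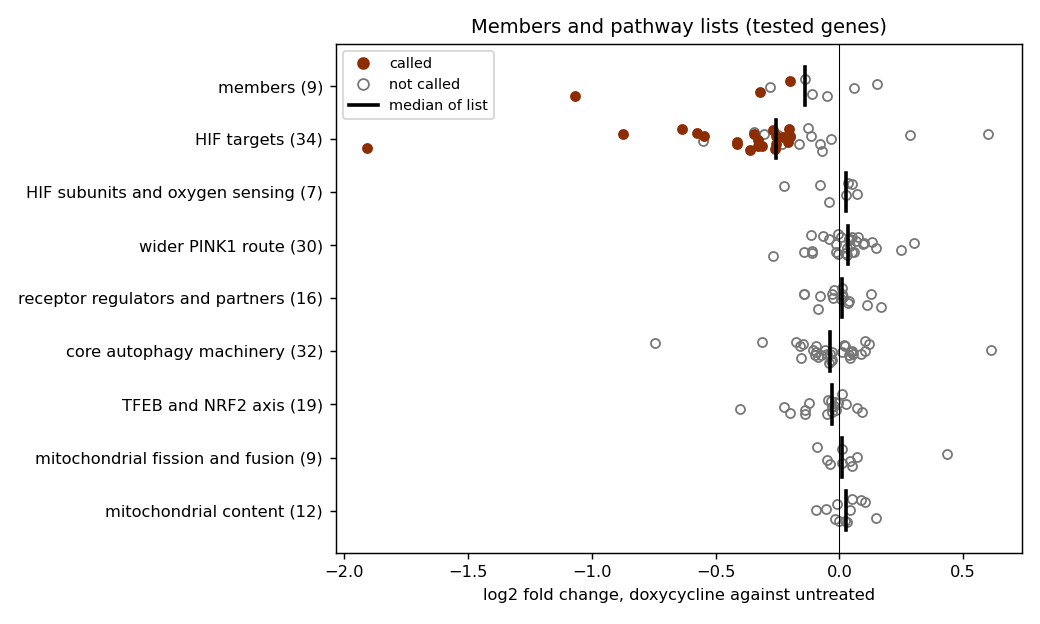
Log2 fold changes (horizontal axis) of the 9 members and of the tested genes of 8 pathway lists, with the number tested in parentheses. Filled points are called genes and black bars are medians. Calls appear among the members, which were chosen by the Bnip3 fold change, and among the HIF targets (median -0.26). The 7 other lists hold none. Over all tested genes 3.09% were called, so few calls or none would be found in lists of their size.

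The genes most like Bnip3 across the 6 libraries, by Pearson correlation of log2 CPM among 11656 other genes with a mean of at least 1 CPM, were Lbh (0.997), Prelid2 (0.996), Mtss1 (0.995), Neu3 (0.994) and Slc4a4 (0.99). All 5 had negative log2 fold changes, from -0.58 to -0.16. Of the members, Sqstm1 was most like Bnip3 (0.96, rank 55), ahead of Bnip3l (0.87), Optn (0.77), Pink1 (0.72), Fundc1 (0.59) and Fkbp8 (0.13). Phb2 (-0.75) and Bcl2l13 (-0.89) ran the other way. These 6 points fall into 2 groups and share their libraries, so the coefficients mostly restate the group difference.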

How the data were processed

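Total RNA was depleted of ribosomal RNA and sequenced in 6 libraries. Per the paper's methods and the labels, the authors demultiplexed reads with bcl2fastq 2.20, aligned them with STAR (build mm10/GRCm38) and obtained gene counts from featureCounts (Subread 1.6.2), and deposited raw counts with replicates kept apart. The strand setting and the treatment of multi-mapping reads are not given in the sources used here, so reads of overlapping genes can go to either gene or be lost. The pseudogenes that match Bnip3 and Bnip3l are not in the count table under their symbols. Reads shared with them can be lost or counted to the member. All 6 columns were matched by library code. The chi-square statistic per degree of freedom between replicates was 6.14 to 22.06, so each library was counted once. The study calls them biological triplicates, the labels name no separate cultures, and errors cover only the spread between these libraries.

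The fit across genes was edgeR 4.0.16 (R 4.3.3), the quasi-likelihood test with robust estimation, TMM scaling, filterByExpr and group as the only term, with Benjamini-Hochberg adjustment over 13084 genes at 0.05. SE is the absolute log2 fold change over the square root of F. CPM used TMM-scaled totals. The alternatives were other scalings and filters, a replicate block, leaving out each library, DESeq2 1.42.0 and limma 3.58.1 (voom). Only the edgeR fit was run on simulated counts. Named genes are all members, up to 4 called genes of each list with the largest change and a mean of at least 1 CPM, a fixed set, and the 5 most like Bnip3 (prior count 2). Ppptc7 of the fixed set was not analysed here, and 1 other gene of it is not reported here. The members and lists were chosen with earlier results of these data known. Similar transcripts were those of other genes aligned over at least 200 bases at 90% identity or more.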

Additional observations from a re-analysis of the deposited data

How the results depend on the processing

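The log2 fold change of Bnip3 ran from -1.21 to -0.92 over the leave-one-out fits. Across those fits the members called lower ran from 1 to 3, HIF targets called lower from 11 to 22, genes of the wider PINK1 route from 0 to 1 in each direction, core autophagy genes called lower from 0 to 1, TFEB and NRF2 genes called lower from 0 to 2, mitochondrial content genes called higher from 0 to 1, and all genes from 116 to 487 lower and from 44 to 269 higher. Without a filter 439 genes were lower and 210 higher, with 1 core autophagy gene and 1 TFEB or NRF2 gene called lower. DESeq2 gave 185 genes higher and 1 TFEB or NRF2 gene lower. The causes were not tested. With the longest RefSeq-matched transcript as length, Bnip3 took rank 5 among the members in place of 4. Same-numbered libraries of the groups did not deviate together (correlations of -0.04, -0.004 and 0.018). These values cannot show whether the cultures were set up in pairs. A replicate block gave 300 genes lower and 118 higher, 3 members lower and 19 HIF targets lower, and -1.06 for Bnip3. Among single genes, the signs of Fkbp8, Tbk1 and Dnm1l, none of them called, depended on the alternative. With 162 to 271 counts per library, Pink1 is the member that depth limits most.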
